A study of Homo sapiens with 22 samples.

Results

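The genes described here are 38 genes of protein folding in the endoplasmic reticulum (ER) and of the unfolded protein response; they were found by symbol among the 26485 symbols of each count table. They comprise 5 sensors and transcription factors, 12 chaperones, co-chaperones and lectins, 8 disulfide isomerases, 9 genes of ER-associated degradation and 4 genes of the translocon, export and ER membrane. The study measured RNA by sequencing in 22 libraries labelled MDA-MB231, a line from a triple-negative breast cancer, in 3 experiments. In the first, wild-type cells received Nexturastat A, an inhibitor of the deacetylase HDAC6, at 7.65 µM for 2 days (n = 2) and were set against Ctrl cells given DMSO (n = 2). In the second, cells carrying the hairpins shHDAC6-1 or shHDAC6-2 (n = 3 each), labelled as HDAC6 knockdown, were set against cells with the control hairpin shCtrl (n = 3), all sampled at day 0. In the last, wild-type cells given HPOB or Tubastatin A (n = 3 each) were set against cells given DMSO (n = 3), all sampled at day 2. No dose of HPOB or Tubastatin A is stated in the labels, and these do not say whether libraries of a group came from separate cultures or whether a hairpin line is 1 clone, so p-values measure only the spread between these libraries. The Tubastatin A libraries carry the letters TSA in their titles, and the treatment label was followed.

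Proteins that enter the secretory pathway are threaded into the ER through the Sec61 channel, folded there by chaperones and disulfide isomerases, and checked by lectins that read their sugars. Proteins that fail are drawn back across the membrane and destroyed by the proteasome. When unfolded protein builds up, the sensors IRE1 (the product of ERN1), ATF6 and PERK act on transcription and translation, in part through short promoter elements known as ER stress response elements.

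The promoters of the members are shown first because several carry those elements as exact letters. RefSeq promoter windows (250 bases before to 50 bases after a start site, GRCh38.p14) were available for 34 of the 38 members, and PDIA3, DERL1, DERL3 and SEC24D had no entry. Both strands were searched for the ER stress response element (ERSE: CCAAT, any 9 bases, then CCACG), for ERSE-II (ATTGG, any base, then CCACG) and for the unfolded protein response element (UPRE, TGACGTGG). An ERSE was found in 7 of the 34 members (20.6%), against 0.0916% of the 27305 genes with a window. Any of the 3 elements was found in 12 members (35.3%), against 1.08% of all genes. The members were chosen as genes of folding and of the unfolded protein response, so these shares describe the list and were not tested. The 250 bases upstream of the start site are printed for 6 of the 12, chosen because their transcripts did different things in the comparisons that follow. They lie at chr22:28800570-28800819 (- strand) for XBP1, chr9:125241344-125241593 (- strand) for HSPA5, chr12:103930160-103930409 (+ strand) for HSP90B1, chr19:12938359-12938608 (+ strand) for CALR, chr22:49918384-49918633 (+ strand) for CRELD2 and chr11:119057206-119057455 (- strand) for HYOU1. Each is written 5′ to 3′ on the strand of its gene. Capitals mark the matched elements.
XBP1: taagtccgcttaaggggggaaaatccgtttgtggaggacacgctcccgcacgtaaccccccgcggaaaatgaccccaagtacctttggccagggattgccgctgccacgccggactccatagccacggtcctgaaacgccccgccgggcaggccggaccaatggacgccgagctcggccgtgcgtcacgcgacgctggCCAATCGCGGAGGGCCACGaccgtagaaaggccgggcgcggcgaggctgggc
HSPA5: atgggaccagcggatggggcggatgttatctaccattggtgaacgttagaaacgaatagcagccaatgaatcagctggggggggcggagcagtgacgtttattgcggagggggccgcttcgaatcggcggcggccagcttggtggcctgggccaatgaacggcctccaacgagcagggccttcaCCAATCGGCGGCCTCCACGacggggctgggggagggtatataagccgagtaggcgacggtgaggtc
HSP90B1: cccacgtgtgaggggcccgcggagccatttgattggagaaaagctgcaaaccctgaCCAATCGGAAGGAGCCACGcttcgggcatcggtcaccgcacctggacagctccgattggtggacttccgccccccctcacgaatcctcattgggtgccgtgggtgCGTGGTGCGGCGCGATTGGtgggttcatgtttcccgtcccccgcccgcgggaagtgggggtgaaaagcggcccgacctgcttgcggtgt
CALR: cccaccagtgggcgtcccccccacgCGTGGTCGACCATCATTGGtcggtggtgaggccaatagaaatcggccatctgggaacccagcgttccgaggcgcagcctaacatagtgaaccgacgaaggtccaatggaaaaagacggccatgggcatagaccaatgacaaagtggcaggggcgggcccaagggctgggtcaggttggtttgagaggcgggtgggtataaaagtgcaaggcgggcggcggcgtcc
CRELD2: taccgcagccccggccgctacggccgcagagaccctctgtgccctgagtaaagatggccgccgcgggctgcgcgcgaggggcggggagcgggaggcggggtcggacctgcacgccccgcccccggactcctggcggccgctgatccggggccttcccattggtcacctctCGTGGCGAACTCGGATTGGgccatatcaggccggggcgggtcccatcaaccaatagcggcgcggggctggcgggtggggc
HYOU1: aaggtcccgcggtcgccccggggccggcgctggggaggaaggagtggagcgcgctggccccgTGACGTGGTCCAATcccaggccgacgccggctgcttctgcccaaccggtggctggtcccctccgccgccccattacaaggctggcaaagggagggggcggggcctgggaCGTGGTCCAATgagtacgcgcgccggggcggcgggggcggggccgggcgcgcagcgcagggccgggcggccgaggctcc
XBP1 and HSPA5 each hold 1 ERSE close to the start site, at -52 to -34 and -66 to -48. HSP90B1 holds 2, at -194 to -176 on the gene's strand and at -89 to -71 on the other strand. In CALR (-225 to -207) and CRELD2 (-80 to -62) the ERSE reads on the other strand, so the capitals show its complement. HYOU1 holds 2 copies of ERSE-II on the other strand and a UPRE that overlaps the upstream copy. The remaining matches were an ERSE in CANX and PDIA6, an ERSE-II in SDF2L1 and HERPUD1, and a UPRE in TXNDC5 and TXNDC11. A match describes letters in a window and does not show that a factor binds there.

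Library totals ranged from 31.2 to 85.9 M counts, and the 38 genes together took 0.696 to 1.52% of them. HDAC6 mRNA stood at 11.8 to 13.6 CPM (a gene's counts scaled to a common library total) in the hairpin libraries of replicates 1 and 2, against 47.8 and 54.6 CPM in their shCtrl libraries. In replicate 3 the hairpin libraries had 9.20 and 11.6 CPM of it, against 24.9 CPM with shCtrl. Several markers of the labelled line went against the label in the 6 knockdown libraries of replicates 1 and 2, and others did not. A list of 8 genes expected in MDA-MB-231 summed to 1350 to 1481 CPM there, against 4397 to 6656 CPM in the other libraries. SPARC, on that list, went the other way, at 150 to 253 CPM there and at most 63.1 CPM elsewhere. Of 6 genes expected to be low, ESR1 had at most 0.649 CPM there, PGR 0.692 CPM and EPCAM 3.85 CPM. ERBB3 had 19.0 to 39.7 CPM there and CDH1 5.48 to 7.31 CPM. CDKN2A, which MDA-MB-231 is known to have lost, stood at 140 to 184 CPM there, and all 5 genes of a list of HEK293 markers were present. That list summed to 1183 to 1502 CPM in the hairpin libraries of replicates 1 and 2 and to 870 and 947 CPM in their shCtrl libraries. In replicate 3 its sum was 21.0 and 66.0 CPM in the hairpin libraries, against 0 with shCtrl, and it reached at most 0.724 CPM in the other 2 experiments. Markers thus differed between the groups of replicate 3 as well: CDKN2A had 7.11 and 24.1 CPM with shHDAC6-1 and shHDAC6-2, against 0 with shCtrl. Of the genes expected in MDA-MB-231, CAV1 had 97.8 and 134 CPM there, against 872 CPM with shCtrl, and ANXA1 had 61.1 and 75.8 CPM, against 712 CPM with shCtrl. VIM, CD44 and CAV2 also lay below shCtrl there. The rest of that list lay above it. AXL had 968 and 1180 CPM, against 855 CPM with shCtrl, and MSN had 1573 and 1824 CPM, against 1059 CPM. SPARC had 38.6 and 35.9 CPM, against 28.6 CPM with shCtrl. The 8 expected genes together summed to 4546 to 5179 CPM in these hairpin libraries, against 5960 CPM with shCtrl. A list of 6 lung epithelial genes also set libraries apart outside replicates 1 and 2. For replicate 3 its total was 236 CPM with shCtrl, 251 CPM with shHDAC6-1 and 67.4 CPM with shHDAC6-2. The Ctrl group of the first experiment ranged from 222 to 330 CPM, and the DMSO group from 10.4 to 11.7 CPM. NKX2-1, 1 of these genes, stood at 60.3 CPM with shCtrl in replicate 3 and at 0.776 to 1.52 CPM with DMSO. Replicates 1 and 2 of the knockdown were therefore fitted apart from replicate 3, and each experiment was read within itself.

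Per kilobase of the longest transcript, the chaperones HSPA5, HSP90B1 and CALR were among the 5 most abundant members in each set of controls, in differing order. In the Ctrl group the level was 504 CPM per kb ± 13.1 for HSP90B1, 446 ± 22.2 for CALR and 198 ± 20.4 for HSPA5 (SD, n = 2). In the shCtrl libraries of replicates 1 and 2 it was 862 CPM per kb ± 50.3 for CALR, 559 ± 14.6 for HSPA5 and 499 ± 66.3 for HSP90B1 (SD, n = 2), and HSPA5 and HSP90B1 did not differ there beyond their spread. In the DMSO group it was 658 CPM per kb ± 6.32 for CALR, 506 ± 12.4 for HSPA5 and 334 ± 9.27 for HSP90B1 (SD, n = 3), with the lectin CANX between the last 2 at 348 ± 7.59. At the low end, DERL3 had 0.0255 CPM per kb in the Ctrl group, 4.03 in the shCtrl libraries of replicates 1 and 2 and 0.470 in the DMSO group. TXNDC5, a thioredoxin-type isomerase, was also low in the Ctrl group, at 0.374 CPM per kb.

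Nexturastat A was given to ask what inhibition of HDAC6 does to gene expression. The folding genes did not move as a block in these 4 libraries: 7 of the 37 members tested were higher than in Ctrl and 7 were lower. A gene is described as called, or as higher, lower, risen or fallen, where the adjusted p of edgeR's quasi-likelihood test was under 0.05. The called share was 37.8% of the members tested, against 36.6% of all 16678 genes tested. The median log2 fold change was -0.12 over the members and 0.03 over all genes. Both treated libraries lay above Ctrl for 14 members and below it for 11, where 43.9% of all genes lay above and 29.9% below. DERL3 had too few counts to be tested. In bulk libraries such as these, fewer cells of a type and less RNA per cell cannot be told apart.

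Among sensors and factors, CREB3, an ER-anchored transcription factor, had 84.7 and 87.8 CPM with Nexturastat A, against a mean of 47.2 ± 4.03 CPM in Ctrl (SD, n = 2). ERN1, which encodes the sensor IRE1, had 11.2 and 13.0 CPM with Nexturastat A, against 7.99 and 5.49 CPM in Ctrl. XBP1, the transcription factor whose mRNA IRE1 splices, had 61.2 and 81.3 CPM with Nexturastat A, against 92.0 and 102 CPM in Ctrl. For all of these the groups did not overlap, with both treated libraries above Ctrl for CREB3 and ERN1 and below it for XBP1. The log2 fold changes were 0.78 ± 0.13 for CREB3 (SE, adjusted p = 0.00569), 0.76 ± 0.24 for ERN1 (adjusted p = 0.0447) and -0.53 ± 0.17 for XBP1 (adjusted p = 0.0429). ATF6, the sensor that is cut to release a transcription factor, had 84.8 and 73.6 CPM with Nexturastat A and 86.5 and 80.0 CPM in Ctrl, and its relative ATF6B had 68.0 and 79.5 CPM with Nexturastat A and 79.4 and 84.6 CPM in Ctrl. Neither was called.

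HSPA5 encodes BiP, the main Hsp70 chaperone of the ER and the usual readout of the response. It had 837 and 1055 CPM with Nexturastat A, against 717 and 830 CPM in Ctrl. Both treated libraries lay above Ctrl, but the log2 fold change of 0.20 (95% interval -0.20 to 0.60) was not called. Of the 12 chaperones, co-chaperones and lectins, 1 rose and 1 fell. SDF2L1, a partner of BiP and its J-proteins, had 30.8 and 48.0 CPM with Nexturastat A, against 15.4 and 16.0 CPM in Ctrl, a log2 fold change of 1.24 ± 0.23 (SE, adjusted p = 0.00735). HSP90B1, the ER Hsp90 known as GRP94, had 1246 and 1171 CPM with Nexturastat A, against 1555 and 1499 CPM in Ctrl, a log2 fold change of -0.43 ± 0.14 (SE, adjusted p = 0.0441). The other 10 had log2 fold changes from -0.25 (UGGT1, the folding sensor of glycoproteins) to 0.38 (DNAJB9, a J-protein that helps BiP hold IRE1 in check).

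Of the 8 disulfide isomerases, 2 fell and the other 6 were not called. PDIA3, the isomerase that works with the lectins calnexin and calreticulin, had 352 and 398 CPM with Nexturastat A, against 544 and 550 CPM in Ctrl, a log2 fold change of -0.63 ± 0.13 (SE, adjusted p = 0.0114). TXNDC11, a thioredoxin-domain protein of the ER membrane, had 16.2 and 20.8 CPM with Nexturastat A, against 24.8 and 27.4 CPM in Ctrl, a log2 fold change of -0.58 ± 0.18 (SE, adjusted p = 0.042). For both genes all treated libraries lay below Ctrl. P4HB and PDIA5 had positive changes that were not called (0.07 and 0.22), and the other 4 isomerases had negative ones.

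Genes of ER-associated degradation split. EDEM2 and EDEM3 belong to 1 family of mannose-trimming proteins that mark glycoproteins for disposal. EDEM2 had 99.4 and 84.7 CPM with Nexturastat A, against 51.4 and 47.3 CPM in Ctrl, a log2 fold change of 0.81 ± 0.14 (SE, adjusted p = 0.00561). EDEM3 had 107 and 92.0 CPM with Nexturastat A, against 174 and 151 CPM in Ctrl, a log2 fold change of -0.80 ± 0.14 (SE, adjusted p = 0.00577). EDEM1, the best known of the family, had 187 and 153 CPM with Nexturastat A and 175 and 151 CPM in Ctrl and was not called. SYVN1, the ubiquitin ligase HRD1 of the retrotranslocation complex, rose (log2 fold change 0.41 ± 0.12, SE). DERL2, one of the Derlin proteins of that complex, had 36.6 and 45.4 CPM with Nexturastat A, against 52.0 and 62.9 CPM in Ctrl, and fell by 0.58 on the log2 scale (SE 0.17). Its partners SEL1L, DERL1 and HERPUD1 had changes from 0.04 to 0.08 and were not called.

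The largest change of a member with Nexturastat A was that of WFS1, an ER membrane protein mutated in Wolfram syndrome. It had 120 and 127 CPM with Nexturastat A, against 45.4 and 39.0 CPM in Ctrl, a log2 fold change of 1.46 ± 0.13 (SE, adjusted p = 0.000951). SEC61B, a subunit of the translocon, had 82.2 and 76.9 CPM with Nexturastat A, against 53.2 and 60.0 CPM in Ctrl, a log2 fold change of 0.40 ± 0.13 (SE, adjusted p = 0.0487). That call was lost with DESeq2 (adjusted p = 0.052), with limma voom (adjusted p = 0.0542) and with GC and length trends removed, where its log2 fold change was 0.08. SEC24D, a cargo adaptor of the COPII coat, had 43.7 and 47.7 CPM with Nexturastat A, against 78.1 and 68.3 CPM in Ctrl, a log2 fold change of -0.77 ± 0.14 (SE, adjusted p = 0.00657). In each of these genes the treated libraries lay wholly on 1 side of Ctrl, and SEC61A1, the channel itself, did not pass the test.

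**Figure D1:**
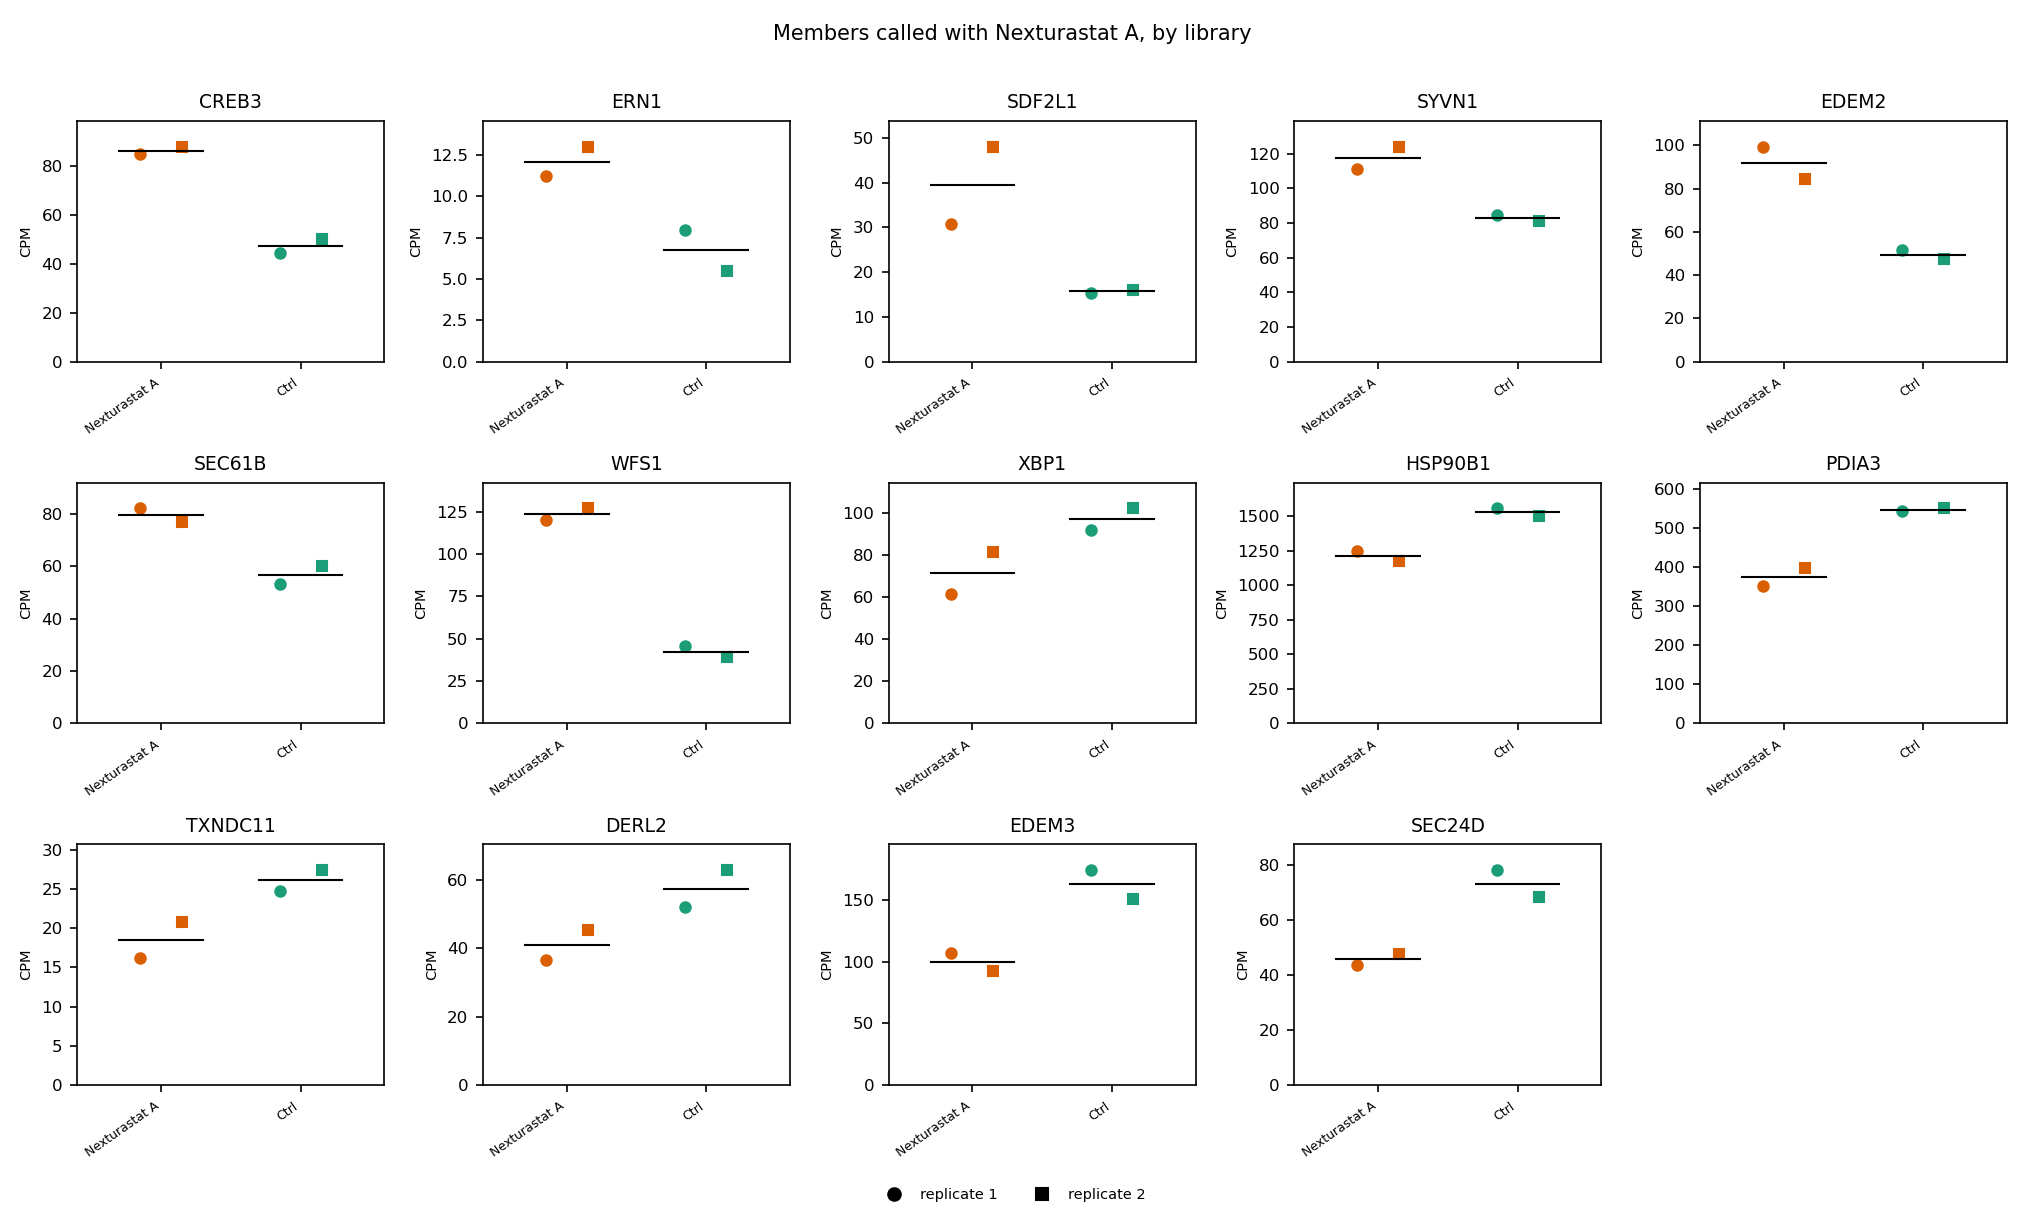
Level in CPM (vertical axis, from 0) of the 14 members called with Nexturastat A, in the 2 treated and the 2 Ctrl libraries; each point is 1 library and the line is the group mean. The 7 members from CREB3 to WFS1 are higher in both treated libraries, and the 7 from XBP1 to SEC24D are lower.

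These calls rest on few libraries. Without Ctrl replicate 1, WFS1 was the only member called, and without Ctrl replicate 2 WFS1, SDF2L1, EDEM3 and SEC24D were. Without Nexturastat A replicate 2, 22 members were called, 7 higher and 15 lower. Marker lists also differed between the groups. Lung epithelial genes summed to 38.8 and 45.4 CPM with Nexturastat A and to 222 and 330 CPM in Ctrl. Most of that difference was MUC5AC, at 0.621 and 3.49 CPM with Nexturastat A, against 245 and 159 CPM in Ctrl. NKX2-1, MUC5B and SFTPB also lay below Ctrl, while NAPSA and SFTPC lay above it. Fibroblast genes summed to 32.5 and 32.9 CPM with Nexturastat A and to 6.84 and 8.27 CPM in Ctrl. Most of that sum was COL1A1, at 26.6 and 27.0 CPM, against 7.91 and 6.22 CPM in Ctrl. The genes expected in MDA-MB-231 summed to 4397 and 5278 CPM with Nexturastat A and to 6595 and 6656 CPM in Ctrl. Spearman's rho between GC content and log2 fold change was 0.41 over the 37 members and 0.12 over all genes. When trends with transcript length and base composition were removed in each library, a setting added after seeing the data, 7 members were higher and 8 lower. XBP1 (-0.58), DERL2 (-0.34) and SEC61B (0.08) lost their calls, and ATF6B (-0.42), PDIA4 (-0.49), PDIA6 (-0.41) and SEL1L (0.34) gained one. WFS1 was at 1.44 in that setting, while EDEM2 was at 0.52, EDEM3 at -0.48 and CREB3 at 0.49, each of them called. The part of the markers in the result was not tested.

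Other genes of the secretory pathway were mixed with Nexturastat A as well. The counts that follow stand beside 21.1% risen and 15.5% fallen among all 16678 genes tested. In the PERK and ATF4 arm 3 of 10 genes rose and 1 fell: the stress transcription factors ATF3 (log2 fold change 1.70 ± 0.23, SE) and DDIT3 (0.87 ± 0.24) rose, while EIF2AK3, which encodes PERK itself, fell by 0.62. Of the 20 genes of signal recognition and translocation that were tested, 2 rose and 5 fell, with SEC11C, a signal peptidase subunit, at 1.37 and the signal recognition particle subunit SRP72 at -0.63. Of 20 COPII genes, 2 rose and 5 fell, with the coat protein SEC23A at -0.98. Of 23 other folding genes tested, 5 rose and 8 fell, the largest called changes being -1.52 for ERP27, -1.33 for TXNDC15 and -1.19 for TOR1A. Of 17 other degradation genes tested, 2 rose and 5 fell, and of 18 glycosylation genes 2 rose and 1 fell. Of 9 oxidation genes 2 rose and 2 fell, of 15 regulators 2 rose and 4 fell, and of 14 cytosolic heat shock genes 3 fell and 11 were not called.

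The second experiment asked what lowering HDAC6 itself does. In replicates 1 and 2 more folding genes rose than fell with both hairpins, and the sensors that were called fell. With shHDAC6-1, 18 of 38 members were higher than with shCtrl and 7 were lower. With shHDAC6-2, 18 were higher and 5 lower. The called share was 65.8% with shHDAC6-1 and 60.5% with shHDAC6-2, where 30.5% and 27.6% of all 17702 genes tested were called. Higher calls made up 15.3% and 14.4% of all genes tested, and lower calls 15.2% and 13.2%. The hairpin libraries lay wholly above shCtrl for 23 and 22 members and wholly below for 8 with each hairpin, where 25.8% and 23.0% of all genes lay above and 39.8% and 37.4% below. The median log2 fold change over the members was 0.30 with either hairpin, against -0.02 and 0.00 over all genes. Both hairpins are set against the same shCtrl libraries; 16 members were higher and 5 lower in both comparisons, and 0 were called in opposite directions. Without shHDAC6-1 replicate 2, 15 members were called with that hairpin. With replicate 3 put in the same fit, edgeR called no member with either hairpin, with 0 and 0 members at an unadjusted p below 0.05; no other tool was run on that fit.

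BiP showed the shift plainly. HSPA5 had 3433 and 3649 CPM with shHDAC6-1 and 3525 and 3384 CPM with shHDAC6-2, against 2226 and 2145 CPM with shCtrl. All 4 hairpin libraries lay above both shCtrl libraries, with log2 fold changes of 0.77 ± 0.09 (SE, adjusted p = 1.47e-06) and 0.76 ± 0.09 (adjusted p = 2.19e-06). HSP90B1 had 2415 and 2517 CPM with shHDAC6-1 and 2478 and 2066 CPM with shHDAC6-2, against 1655 and 1371 CPM with shCtrl, log2 fold changes of 0.78 ± 0.11 and 0.68 ± 0.11 (SE). The J-protein DNAJB9 averaged 37.9 ± 0.135 CPM with shHDAC6-1 (SD, n = 2) and had 35.3 and 26.8 CPM with shHDAC6-2, against 22.9 and 17.0 CPM with shCtrl, log2 fold changes of 1.01 ± 0.15 and 0.74 ± 0.15 (SE). The other J-proteins DNAJB11 and DNAJC3 also rose with both hairpins, by 0.60 to 0.70 on the log2 scale. So did the prolyl isomerase PPIB (0.76 and 0.68) and MANF, a secreted BiP partner (0.41 and 0.32).

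Chaperones did not all follow. HYOU1, the Hsp110-type nucleotide exchange factor of BiP, had 272 and 254 CPM with shHDAC6-1 and 280 and 294 CPM with shHDAC6-2, against 450 and 511 CPM with shCtrl. The lectin chaperone CALR had 1052 and 1069 CPM with shHDAC6-1 and 1160 and 1171 CPM with shHDAC6-2, against 1573 and 1708 CPM with shCtrl. Every hairpin library was below every shCtrl library for both genes. HYOU1 fell by 0.79 and 0.65 on the log2 scale (SE 0.11 each, adjusted p = 1.49e-05 and 0.000153) and CALR by 0.55 and 0.40 (SE 0.10 each). The membrane-bound lectin CANX, which works in the same cycle as CALR, had log2 fold changes of 0.17 and 0.25 and was not called. In all, 7 of 12 chaperones, co-chaperones and lectins rose with shHDAC6-1 and 8 with shHDAC6-2, and HYOU1 and CALR fell with each.

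Of the 8 disulfide isomerases, 6 rose with both hairpins, and all 8 had positive changes. PDIA4 had 1327 and 1378 CPM with shHDAC6-1 and 1420 and 1368 CPM with shHDAC6-2, against 810 and 842 CPM with shCtrl. Its log2 fold changes were 0.79 ± 0.10 (SE, adjusted p = 2.82e-06) and 0.85 ± 0.10 (adjusted p = 1.13e-06). PDIA6 had 648 and 708 CPM with shHDAC6-1 and 679 and 654 CPM with shHDAC6-2, against 489 and 472 CPM with shCtrl, a log2 fold change of 0.57 with each. PDIA5 had 61.5 and 62.3 CPM with shHDAC6-1 and 65.9 and 60.3 CPM with shHDAC6-2, against 44.9 and 47.1 CPM with shCtrl. For PDIA4, PDIA6 and PDIA5 no hairpin library overlapped shCtrl. P4HB, PDIA3 and CRELD2, whose product also acts on disulfides of secreted proteins, rose by 0.30 to 0.46. TXNDC5 and TXNDC11 had changes from 0.08 to 0.41 that were not called.

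Among the sensors and factors the called changes were all downward. ATF6B had 54.9 and 49.5 CPM with shHDAC6-1 and 56.8 and 58.7 CPM with shHDAC6-2, against 118 and 134 CPM with shCtrl, and fell by 1.19 and 1.03 on the log2 scale (SE 0.12 each, adjusted p = 1.56e-07 and 1.2e-06). CREB3 had 40.4 and 42.3 CPM with shHDAC6-1 and 36.2 and 43.3 CPM with shHDAC6-2, against 58.2 and 58.9 CPM with shCtrl, and fell by 0.42 and 0.46. In both genes the hairpin libraries lay below all shCtrl libraries. ERN1 had 8.89 and 7.79 CPM with shHDAC6-1, 12.7 and 13.4 CPM with shHDAC6-2 and 11.6 and 15.3 CPM with shCtrl. It fell by 0.61 with shHDAC6-1 (SE 0.17, adjusted p = 0.00748) and was not called with shHDAC6-2 (0.05 ± 0.16, SE). XBP1 had 132 and 136 CPM with shHDAC6-1, 123 and 127 CPM with shHDAC6-2 and 153 and 133 CPM with shCtrl, and ATF6 had 86.6 and 82.3 CPM with shHDAC6-1, 93.3 and 77.9 CPM with shHDAC6-2 and 90.4 and 80.6 CPM with shCtrl. Neither XBP1 nor ATF6 was called, although both XBP1 libraries of shHDAC6-2 lay below shCtrl.

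In ER-associated degradation, SEL1L and SYVN1, the scaffold and the ligase of the HRD1 complex, rose with both hairpins. SYVN1 had 83.0 and 85.3 CPM with shHDAC6-1 and 79.4 and 99.1 CPM with shHDAC6-2, against 58.5 and 70.5 CPM with shCtrl, log2 fold changes of 0.46 ± 0.13 and 0.57 ± 0.13 (SE). SEL1L had 100 and 90.0 CPM with shHDAC6-2, against 84.7 and 75.7 CPM with shCtrl, and both shHDAC6-1 libraries also lay above shCtrl, with log2 fold changes of 0.37 ± 0.12 and 0.34 ± 0.12 (SE). Of the Derlins, DERL1 and DERL2 were called higher with shHDAC6-1 alone (0.33 and 0.39), with changes of 0.28 and 0.17 under shHDAC6-2. DERL2 had 38.7 and 41.0 CPM with shHDAC6-1 and averaged 33.8 ± 4.03 CPM with shHDAC6-2 (SD, n = 2), against 35.4 and 28.8 CPM with shCtrl, so that shHDAC6-2 overlapped shCtrl. DERL3 had 5.97 and 5.76 CPM with shHDAC6-1 and 5.57 and 6.04 CPM with shHDAC6-2, against a mean of 14.2 CPM with shCtrl (n = 2, the lower library at 13.4 CPM), and fell by 1.20 with each (SE 0.17). HERPUD1 and EDEM1 to EDEM3 were not called with either hairpin. Of the translocon subunits, SEC61B had 110 and 118 CPM with shHDAC6-1 and 88.6 and 95.4 CPM with shHDAC6-2, against 70.1 and 63.6 CPM with shCtrl, log2 fold changes of 0.85 ± 0.12 and 0.56 ± 0.12 (SE). SEC61A1 had 362 and 372 CPM with shHDAC6-1 and 388 and 392 CPM with shHDAC6-2, against 328 and 348 CPM with shCtrl, and rose with shHDAC6-2 (0.30, adjusted p = 0.04). SEC24D had 21.2 and 22.2 CPM with shHDAC6-1 and 24.5 and 22.6 CPM with shHDAC6-2, against 28.2 and 30.8 CPM with shCtrl, and fell with shHDAC6-1 (-0.37, adjusted p = 0.0424). Both genes were wholly on 1 side of shCtrl with each hairpin, and WFS1 was not called.

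**Figure D2:**
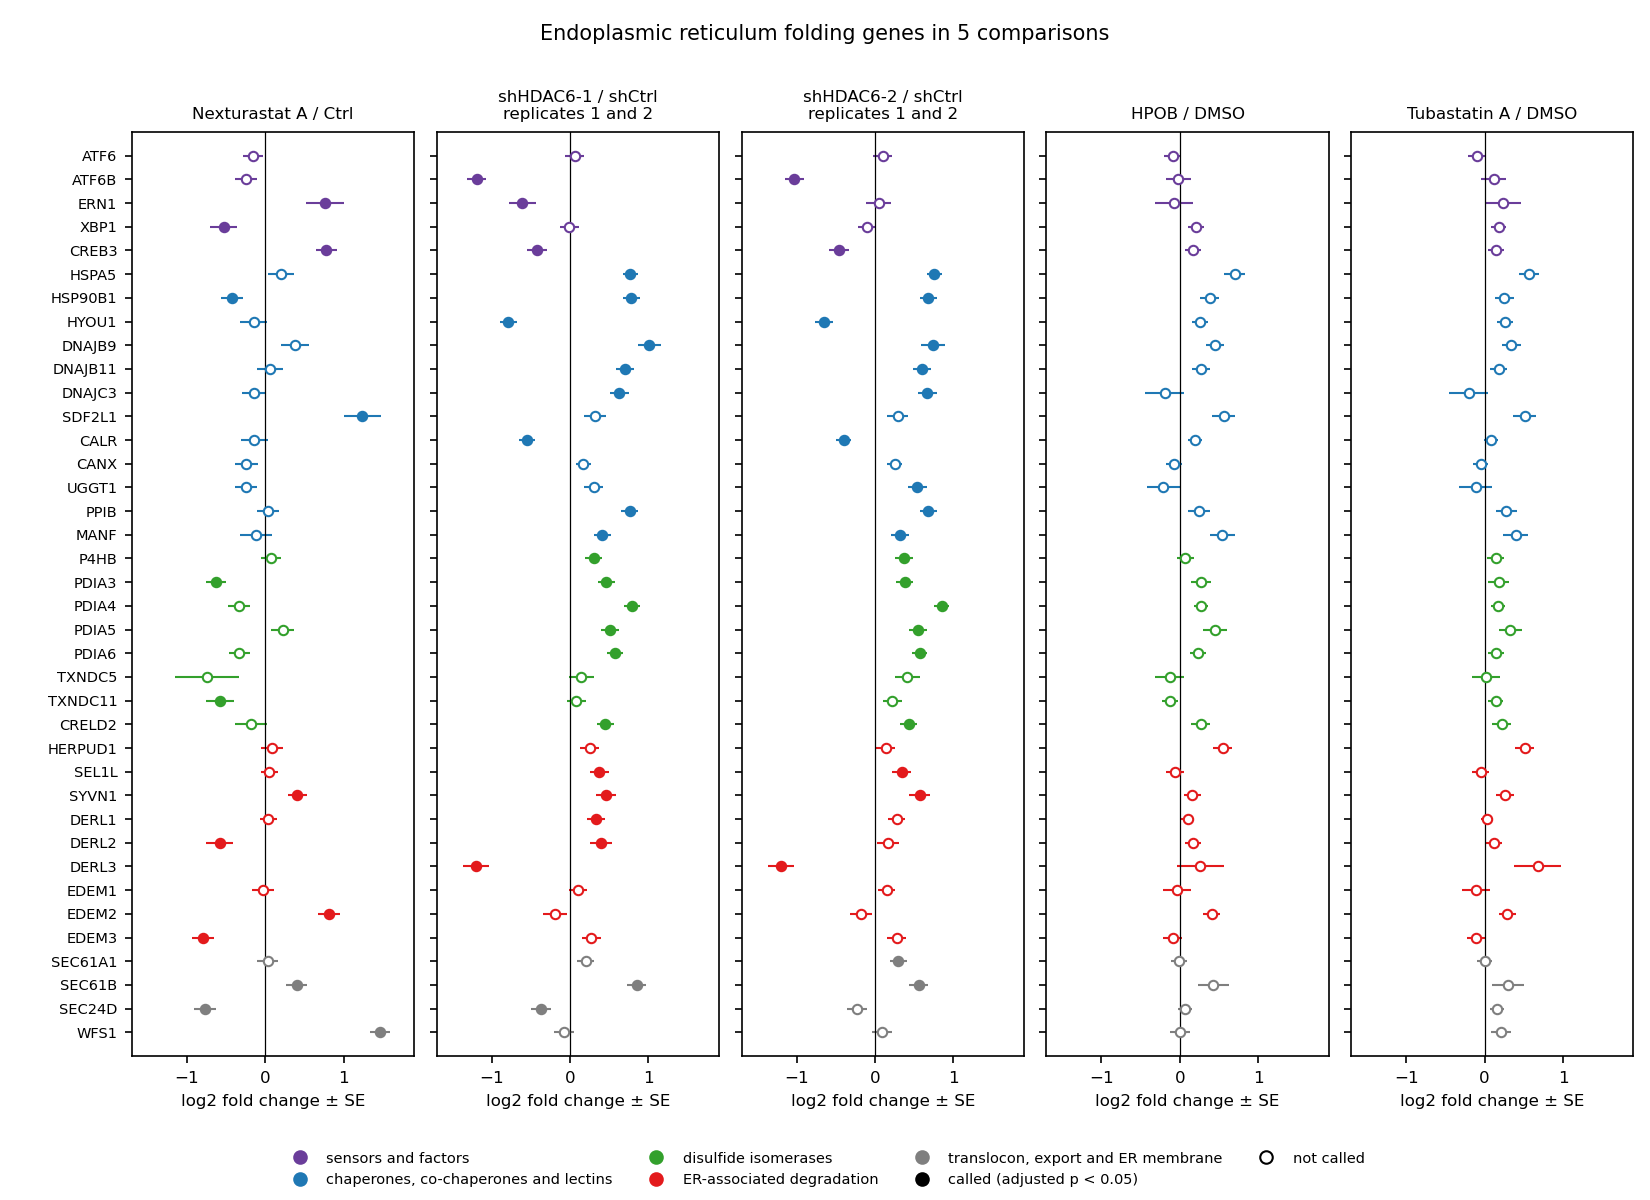
Log2 fold change (horizontal axis, with SE bars) of the 38 members, 1 line each and coloured by role, in 5 comparisons; filled points passed the adjusted p threshold of 0.05 and open points did not, and DERL3 is missing for Nexturastat A. Both hairpin panels hold 18 filled points above 0, and neither compound panel holds a filled point.

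Between the hairpins, no member and no gene at all was called by edgeR, while 2 members and 1107 genes in all had an unadjusted p under 0.05. Neither DESeq2 nor limma voom called a member. The 2 members were ERN1, lower with shHDAC6-1 by 0.67 (95% interval -1.01 to -0.32, adjusted p = 0.775), and SEC61B, 0.29 higher (0.05 to 0.53, adjusted p = 0.775). ERN1 was called lower with shHDAC6-1 when these 2 groups were fitted alone and when either shCtrl library was left out. The shHDAC6-1 libraries lay wholly above shHDAC6-2 for 10 members and below for 9, where 21.1% of all genes lay above and 19.1% below. For HSPA5 the difference was 0.02, with an interval of -0.17 to 0.21. A missed threshold does not show that the hairpins act alike.

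Other genes of the pathway rose in part with the hairpins as well. In the PERK and ATF4 arm, 8 of 10 genes rose with shHDAC6-1 and 6 with shHDAC6-2, and none fell with either, where 15.3% and 14.4% of all genes tested rose and 15.2% and 13.2% fell. TRIB3, a target of ATF4, had log2 fold changes of 0.96 and 0.89, and CEBPB had 0.85 and 0.60. Of the 20 genes of signal recognition and translocation, 13 and 9 rose and none fell, with SRPRB, the receptor's beta subunit, at 0.70 and 0.62. Of the 20 COPII genes, 9 rose with each hairpin and 1 fell with shHDAC6-1 alone. The risen genes were led by the cargo receptors TMED10 (1.34 and 1.26) and MCFD2 (1.27 and 1.26) and by KDELR3 (1.08 and 0.98), a receptor that returns ER residents. CKAP4, a membrane protein of ER sheets, had the largest change among other folding genes (1.56 and 1.53), of which 8 and 6 of 23 rose and 3 and 2 fell. Of 18 glycosylation genes 5 and 4 rose and 2 fell with each hairpin, with the glucosidase MOGS at -1.04 and -0.96. Of 17 other degradation genes 5 rose with each hairpin, and of 9 oxidation genes 4 and 3 rose; none of either list fell. Of 15 regulators 2 rose and 2 fell with each, with CREB3L2 at -1.60 and -1.44. Of 14 cytosolic heat shock genes 1 rose and 3 fell with each, with HSPA1B at -0.86 and -0.74.

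In replicates 1 and 2 the members' log2 fold changes tended to be lower where GC content was higher, much as over all genes. Among the 19 members whose longest transcript has a GC content under 50%, 11 rose and 1 fell with shHDAC6-1 and 10 rose with shHDAC6-2. Among the 19 members at 50% or more, 7 rose and 6 fell with shHDAC6-1 and 8 rose and 5 fell with shHDAC6-2. The share of all genes on each side of 50% was not counted, so these counts describe the members alone. Spearman's rho between GC content and log2 fold change was -0.40 and -0.32 over the members, and -0.38 and -0.27 over all genes with a value, which share libraries and are not independent. With per-library trends on GC content and length taken out, a setting added after seeing the data, 19 members were higher and 8 lower with shHDAC6-1, 21 and 6 with shHDAC6-2. HSPA5 then had log2 fold changes of 0.67 and 0.65, PDIA4 0.87 and 0.90, and CALR -0.44 and -0.29, each of them called. SEL1L, at 0.13 with each hairpin, was no longer called, nor were DERL1 (0.16) and DERL2 (0.14) with shHDAC6-1. Calls gained with shHDAC6-1 were XBP1, lower at -0.21, and SDF2L1 (0.67), UGGT1, HERPUD1 (0.20) and SEC61A1, all higher. Calls gained with shHDAC6-2 were SDF2L1 (0.66), TXNDC5, TXNDC11 and WFS1, all higher, and SEC24D, lower at -0.34. The HEK293 marker list, given above, also moved with these groups, and its part in the result was not tested.

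Replicate 3 had 1 library per group, so no test was possible and ratios are given without a replicate check. A ratio past 1.5-fold either way was seen for 24 of 38 members with shHDAC6-1 (12 higher, 12 lower), where 77.8% of all genes were past it (34.6% higher, 43.2% lower). With shHDAC6-2 it was seen for 22 (10 higher, 12 lower), against 76.6% of all genes (33.4% higher, 43.2% lower). The members' share is thus below that of all genes, and no result about the members is read from the counts. Over all genes the median log2 ratio by library total was -0.28 and -0.26; scaled with TMM factors it was -0.03 and -0.06, and 15 members were then higher and 11 lower with shHDAC6-1, 12 and 11 with shHDAC6-2.

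The markers of the line that differ between these 3 libraries are given above, and their part in the ratios was not tested. Of the 18 members that rose in replicates 1 and 2, 12 had a ratio below 1 here with shHDAC6-1 and 12 with shHDAC6-2, 6 of them past 1.5-fold with each. Several chaperones were among them. HSP90B1 had 156 and 113 CPM with the hairpins (shHDAC6-1, then shHDAC6-2), against 1214 CPM with shCtrl. DNAJC3 had 12.3 and 9.30 CPM in the same order, against 72.6 CPM with shCtrl, and DNAJB9 had 5.05 and 7.20 CPM, against 16.9 CPM with shCtrl. HSPA5 differed less, at 652 and 731 CPM, against 974 CPM with shCtrl. EDEM3 showed the lowest ratio of all members, with 4.28 and 3.87 CPM in the hairpin libraries against 99.8 CPM with shCtrl, and SEL1L had 16.7 and 16.1 CPM against 143 CPM. These genes have GC contents of 38.6 to 46.0%. PDIA4, at 471 and 348 CPM in the hairpin libraries, against 373 CPM with shCtrl, lay on both sides of its control.

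Several members richer in GC stood high in replicate 3. CREB3 had 98.3 and 77.6 CPM with the hairpins, against 48.6 CPM with shCtrl. SDF2L1, the member with the highest GC content (65.5%), had 104 and 64.7 CPM with the hairpins, against 30.9 CPM with shCtrl, and WFS1 had 72.8 and 48.1 CPM, against 19.9 CPM. DERL3 had 3.55 and 2.41 CPM with the hairpins, against 0.216 CPM with shCtrl, ratios of 16.4 (95% counting interval 9.65 to 30.4) and 11.2 (6.44 to 20.9). XBP1 and HERPUD1 are exceptions, at GC contents of 41.5% and 47.9%. XBP1 had 179 and 210 CPM in the hairpin libraries against 92.6 CPM with shCtrl, and HERPUD1 had 99.5 and 155 CPM against 58.8 CPM. ERN1 had 15.7 and 10.2 CPM against 5.85 CPM, ATF6B 112 and 100 CPM against 80.3 CPM, and ATF6 23.9 and 30.5 CPM against 68.6 CPM with shCtrl. Spearman's rho between GC content and log2 ratio was 0.83 with shHDAC6-1 and 0.78 with shHDAC6-2 over the members, and 0.76 and 0.75 over all genes. Under 50% GC, 12 members were lower and 2 higher with either hairpin; at 50% or more, 10 and 8 were higher and none lower past 1.5-fold. All genes were not counted by this GC limit, so no result about the members is read from the split.

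**Figure D3:**
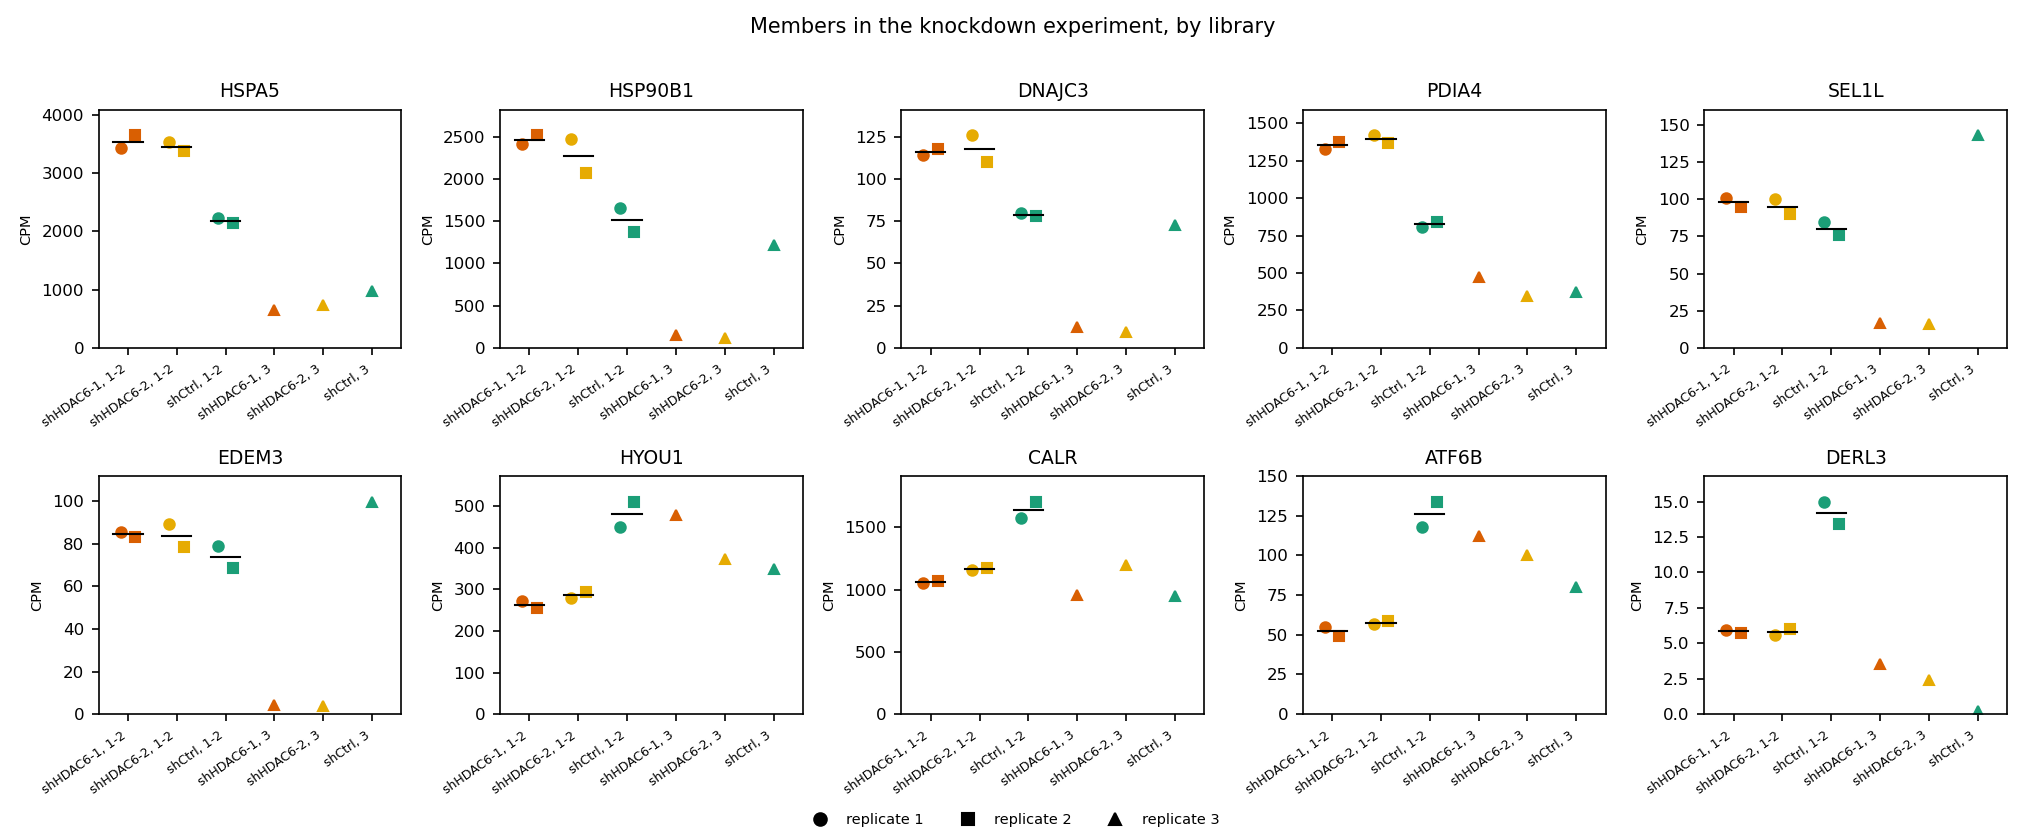
Level in CPM (vertical axis, from 0) of 10 members in the knockdown experiment; columns marked 1-2 hold replicates 1 and 2 with the group mean as a line, and columns marked 3 hold the single library of replicate 3. HSPA5, HSP90B1, DNAJC3 and PDIA4 are higher with both hairpins than with shCtrl in replicates 1 and 2, and HSP90B1, DNAJC3, SEL1L and EDEM3 are lower in replicate 3.

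**Figure D4:**
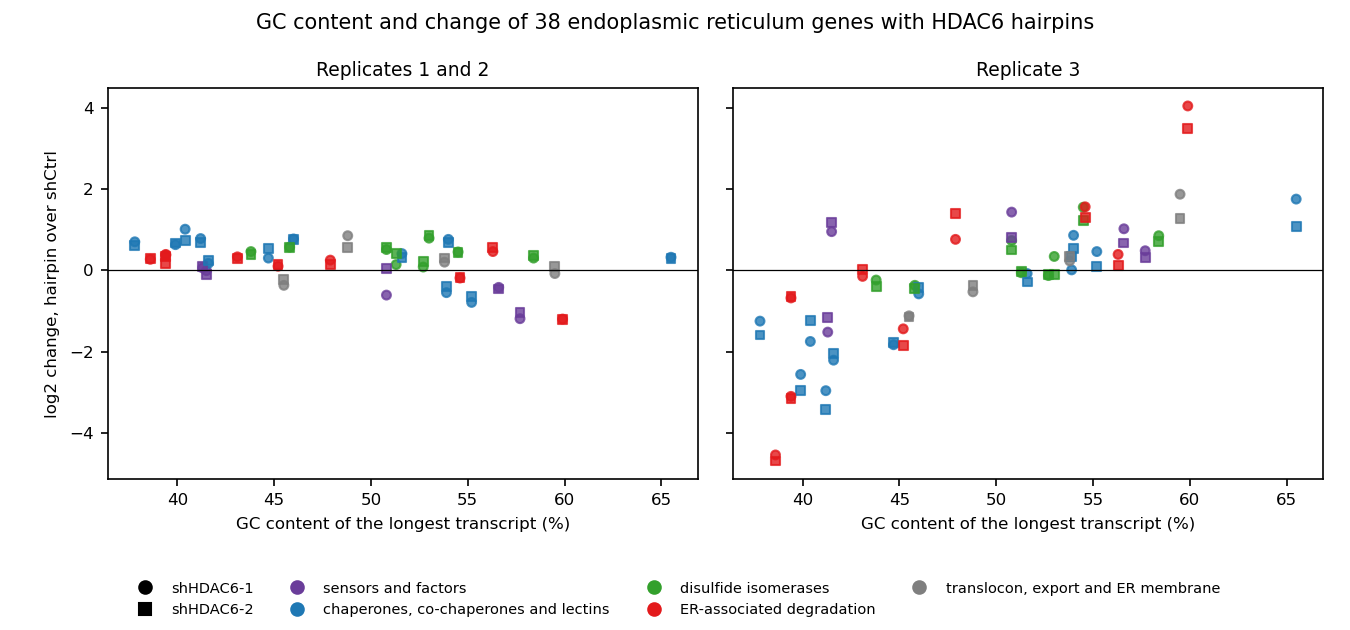
Log2 change of the 38 members with each hairpin over shCtrl (vertical axis) by GC content of the longest transcript (horizontal axis, percent), in replicates 1 and 2 (left, edgeR log2 fold change) and in replicate 3 (right, log2 ratio of CPM). The slope is downward on the left (rho -0.40 and -0.32) and upward on the right (rho 0.83 and 0.78).

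HPOB and Tubastatin A are 2 further compounds known as HDAC6 inhibitors. With each of them HSPA5 and several members stood above DMSO in every library, but no member was called: edgeR called 0 of 38 members with either compound. With HPOB 14 members, and with Tubastatin A 10, had an unadjusted p below 0.05, as did 1588 and 757 of all 15338 genes tested. DESeq2 called 2 members with HPOB and 1 with Tubastatin A, and limma voom with library weights called 2 with each. Over all genes edgeR called 0.0261% with HPOB and 0% with Tubastatin A. In 20 members all HPOB libraries lay above all DMSO libraries and in 0 were all below, where 11.4% of all genes were wholly above and 10.1% wholly below. With Tubastatin A it was again 20 members above and 0 below, against 9.79% and 6.59% of all genes. The median log2 fold change of the members was 0.18 with each compound, against 0.01 over all genes. The compounds share their DMSO libraries, so these 2 counts are not independent of each other.

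HSPA5 had 2906, 3302 and 3436 CPM with HPOB and 2563, 3625 and 2689 CPM with Tubastatin A, against 2029, 1973 and 1933 CPM with DMSO. Every treated library lay above every DMSO library, with a log2 fold change of 0.70 with HPOB (95% interval 0.40 to 0.99, adjusted p = 0.169) and 0.57 with Tubastatin A (0.29 to 0.86, adjusted p = 0.621). A permutation of 3 against 3 libraries cannot give an exact two-sided p below 0.1. DESeq2 called HSPA5 with HPOB (adjusted p = 0.000441) and with Tubastatin A (adjusted p = 0.0278), and limma voom called it with both (adjusted p = 0.00118 and 0.0116). Without Tubastatin A replicate 2, edgeR called 4 members with HPOB: HSPA5, HERPUD1, SDF2L1 and MANF. HSPA5 was also called with HPOB without the filter on low counts, with the 2 groups alone and with HPOB replicate 3 and Tubastatin A replicate 2 both left out. With GC and length trends removed it was not called with either compound.

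The members next to HSPA5 were chosen after their values were seen. HERPUD1, which brings the HRD1 complex together, had 106, 131 and 128 CPM with HPOB and 105, 140 and 110 CPM with Tubastatin A, against 84.5, 84.1 and 79.4 CPM with DMSO. Its log2 fold changes were 0.55 ± 0.12 (SE, adjusted p = 0.169) and 0.51 ± 0.12 (adjusted p = 0.652). SDF2L1 had 48.9, 63.1 and 67.8 CPM with HPOB and 48.2, 71.6 and 54.7 CPM with Tubastatin A, against 40.0, 40.9 and 41.1 CPM with DMSO. In both genes no treated library overlapped DMSO. MANF had 125, 154 and 155 CPM with HPOB and 110, 175 and 110 CPM with Tubastatin A, against 103, 93.0 and 102 CPM with DMSO, and DNAJB9 had 47.5, 54.9 and 52.3 CPM with HPOB and 44.1, 55.5 and 44.3 CPM with Tubastatin A, against 37.0, 41.3 and 34.6 CPM with DMSO. HSP90B1 had 1186, 1408 and 1364 CPM with HPOB and 1110, 1441 and 1085 CPM with Tubastatin A, against 1014, 1041 and 985 CPM with DMSO. The treated libraries were again all above DMSO, with log2 fold changes of 0.54 and 0.40 for MANF, 0.45 and 0.34 for DNAJB9 and 0.38 and 0.25 for HSP90B1, none of them called. EDEM2, the mannose-trimming protein that rose with Nexturastat A, averaged 39.3 ± 1.17 CPM with HPOB and 36.4 ± 3.80 CPM with Tubastatin A, against 29.5 ± 1.15 CPM with DMSO (SD, n = 3).

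By role, 9 of 12 chaperones, co-chaperones and lectins and 5 of 8 disulfide isomerases lay wholly above DMSO with each compound. Of the degradation genes it was 3 of 9 with HPOB and 4 with Tubastatin A. Among the sensors, XBP1 had 98.7, 118 and 105 CPM with HPOB and 105, 112 and 97.6 CPM with Tubastatin A, against 91.0, 92.4 and 93.0 CPM with DMSO. CREB3 had 75.2, 80.3 and 81.1 CPM with HPOB and 74.0, 82.3 and 76.5 CPM with Tubastatin A, against 74.7, 63.8 and 70.5 CPM with DMSO. XBP1 was thus wholly above DMSO with each compound and CREB3 with HPOB alone, and neither was called. ATF6 ranged from 82.8 to 99.8 CPM with HPOB and from 80.8 to 100 CPM with Tubastatin A, against 92.8 to 98.4 CPM with DMSO. ATF6B ranged from 88.1 to 153 CPM with HPOB and from 127 to 151 CPM with Tubastatin A, against 119 to 129 CPM with DMSO, and ERN1 from 4.22 to 8.60 CPM with HPOB and from 7.91 to 10.1 CPM with Tubastatin A, against 6.40 to 8.38 CPM with DMSO. These 3 sensors overlapped DMSO with both compounds.

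Some of the spread comes from 2 libraries. DNAJC3 had 52.2 CPM in HPOB replicate 3 and 49.4 CPM in Tubastatin A replicate 2, where the DMSO libraries had 87.3 to 94.9 CPM. UGGT1 had 176, 132 and 108 CPM with HPOB and 181, 98.1 and 166 CPM with Tubastatin A, against 166, 157 and 156 CPM with DMSO. HPOB replicate 3 and Tubastatin A replicate 2 were the low libraries in both genes. They were also the lowest for AXL, a receptor kinase expected in the line and no member of the list, at 834 and 682 CPM, where the other treated libraries had 1377 to 1618 CPM and DMSO had 1522 to 1621 CPM. For other members Tubastatin A replicate 2 was the high library of its group. It had 3625 CPM of HSPA5, 1441 CPM of HSP90B1 and 175 CPM of MANF. The other Tubastatin A libraries had 2563 and 2689, 1110 and 1085, and 110 and 110 CPM in the same order. With HPOB replicate 3 and Tubastatin A replicate 2 both left out, the median over the members was 0.16 with HPOB and 0.10 with Tubastatin A. The HEK293 list summed to at most 0.145 CPM in this experiment, so its genes are near 0 here. Spearman's rho between GC content and log2 fold change was 0.18 over the members with HPOB and 0.41 with Tubastatin A, against 0.10 and 0.32 over all genes. With GC and length trends removed, a setting added after seeing the data, 0 members were called with either compound. The part of base composition in the result was not tested further.

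**Figure D5:**
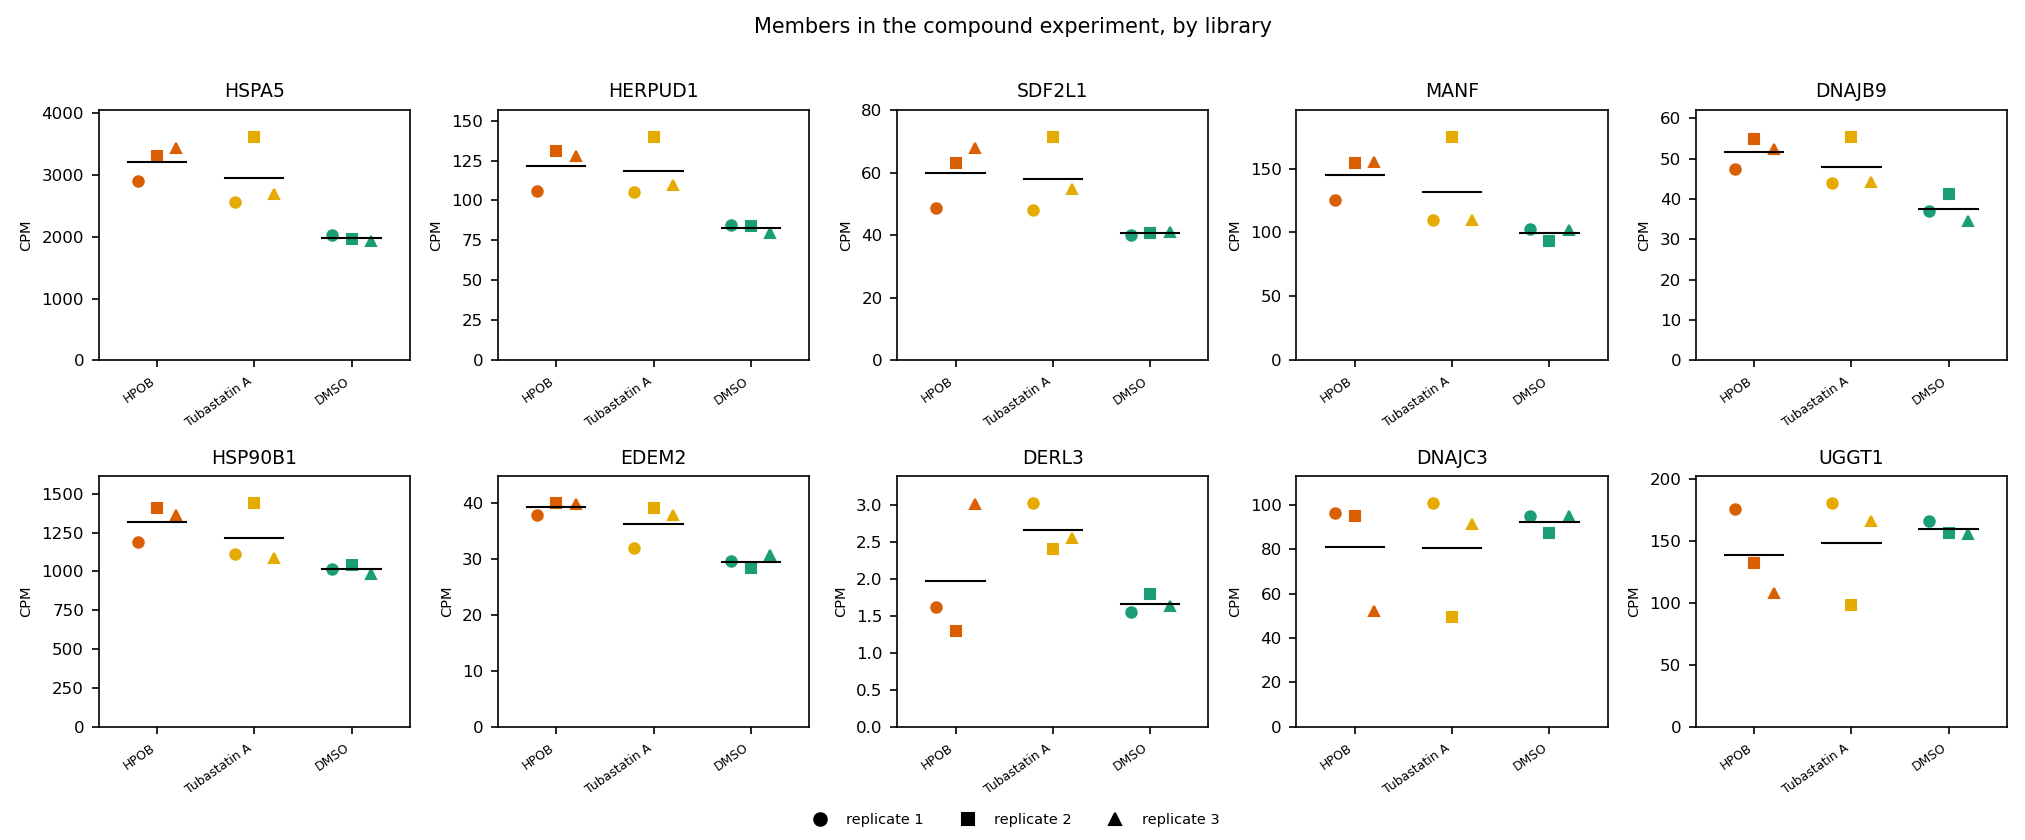
Level in CPM (vertical axis, from 0) of 10 members in the compound experiment; each point is 1 library, marked by replicate, and the line is the group mean. HSPA5, HERPUD1, SDF2L1, MANF, DNAJB9 and HSP90B1 are higher than DMSO in every treated library, while DNAJC3 and UGGT1 are low in HPOB replicate 3 and Tubastatin A replicate 2.

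Since doses are not given, the contrast of Tubastatin A with HPOB compares libraries and not compounds at matched dose. No member and no gene was called by edgeR, while 1 member (TXNDC11, 0.25 higher with Tubastatin A) and 481 genes in all had an unadjusted p below 0.05; DESeq2 and limma voom also called no member. All Tubastatin A libraries lay above all HPOB libraries for 1 member and below for 3, where 3.33% of all genes lay above and 2.95% below. For HSPA5 the log2 difference was -0.12, with a 95% interval of -0.41 to 0.17. In the wider pathway the PERK and ATF4 arm stood highest, with median log2 fold changes of 0.33 with HPOB and 0.37 with Tubastatin A and with 7 and 8 of its 10 genes wholly above DMSO. With each compound 7 of the 10 had an unadjusted p below 0.05 and edgeR called 0. The other pathway lists, likewise without a call by edgeR, had medians from -0.02 to 0.18 with HPOB and from -0.03 to 0.16 with Tubastatin A, with 1 to 4 genes each at an unadjusted p below 0.05 with HPOB and 0 to 3 with Tubastatin A.

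Set against the promoters, members with and without a stress element did not separate cleanly. With either hairpin, 4 of the 12 members with an element rose (HSPA5, HSP90B1, PDIA6 and CRELD2), HYOU1 and CALR fell, and 6 were not called. Of the 22 members with a window and no element, 12 rose and 3 fell with shHDAC6-1, 13 and 2 with shHDAC6-2. With Nexturastat A, SDF2L1 was the 1 member with an element that rose, while XBP1, HSP90B1 and TXNDC11 fell; without an element, 6 rose and 2 fell. With HPOB the median log2 fold change was 0.24 with an element and 0.12 without, and with Tubastatin A 0.20 and 0.16. These are counts and medians over chosen genes and were not tested.

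Across the experiments, single members did different things, each read against its own controls. HSP90B1 rose with both hairpins in replicates 1 and 2 and fell with Nexturastat A. PDIA3 did the same. CREB3 fell with the hairpins in replicates 1 and 2 and rose with Nexturastat A. ERN1 fell with shHDAC6-1 in replicates 1 and 2 and rose with Nexturastat A. In replicate 3, which allowed no test, each of these members, chosen after their values were seen, differed from shCtrl in the same direction as with Nexturastat A. The replicate 3 ratios (shHDAC6-1, then shHDAC6-2) were 2.02 and 1.60 for CREB3 and 2.69 and 1.75 for ERN1. They were 0.128 and 0.0935 for HSP90B1 and 0.844 and 0.764 for PDIA3. XBP1 went the other way: it fell with Nexturastat A and had replicate 3 ratios of 1.93 and 2.26. Over the members, changes ran upward with GC content both with Nexturastat A (rho 0.41) and in replicate 3 (0.83 and 0.78). The part of GC content in these directions was not tested. SYVN1 and SEC61B rose with both hairpins in replicates 1 and 2 and with Nexturastat A. The Nexturastat A call of SEC61B was not made by DESeq2 or limma voom, nor with GC and length trends removed (0.08). In replicate 3 SEC61B had ratios of 0.694 and 0.767 with the hairpins, and SYVN1 had 1.31 and 1.08. The differences between the experiments were not tested, since they were made apart and the markers of the line differ between them.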

How the data were processed

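RNA was sequenced from 22 libraries in 8 groups. Per the submitters' processing notes the authors used Trim Galore 0.6.7, STAR 2.7.9a, featureCounts 2.0.3 and DESeq2 1.30.1 with GRCh38, and they deposited raw read counts per gene symbol, 1 file per library. Whether counting used strand is not stated there. No sample column was left unused (0). Levels are CPM, counts scaled to the library total. Each experiment was fitted apart with edgeR 4.0.16 (R 4.3.3; TMM factors, filterByExpr with a minimum count of 10 and total of 15, robust quasi-likelihood F test), with Benjamini-Hochberg adjustment over all genes tested. Knockdown replicates 1 and 2 made 1 fit, and replicate 3 was described by ratios with 95% Poisson-based intervals that cover counting error only, for genes with at least 10 counts. Alternatives were DESeq2 1.42.0, limma 3.58.1 voom, other scaling and filters, a replicate block, each library left out, and GC and length trends removed. Fits were tested on simulated data. Values are printed for HSPA5, the sensors and the 3 largest called members of each role, and for at most 3 called genes of each further list; other members named were chosen after their values were seen. Members and lists were chosen with earlier results of these data known. Transcript length and GC content came from GENCODE 29. A few members may share reads with related genes.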

Additional observations from a re-analysis of the deposited data

Results flagged for a closer look

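In the knockdown experiment 20 members called in replicates 1 and 2 with at least 1 hairpin had a ratio on the other side of 1 in replicate 3, and for 10 of them, in 17 hairpin contrasts, it was past 1.5-fold. The difference was not tested, since replicate 3 has 1 library per group. HSP90B1 had log2 ratios of -2.96 and -3.42 in replicate 3 with shHDAC6-1 and shHDAC6-2, against log2 fold changes of 0.78 and 0.68 in replicates 1 and 2. The J-proteins gave -1.75 and -1.24 for DNAJB9, -1.25 and -1.59 for DNAJB11 and -2.56 and -2.96 for DNAJC3 in replicate 3, all of them higher in replicates 1 and 2. SEL1L had -3.1 and -3.15, UGGT1 had -1.77 with shHDAC6-2, and DERL2 had -0.68 with shHDAC6-1, where replicates 1 and 2 had 0.37 and 0.34 for SEL1L, 0.54 for UGGT1 and 0.39 for DERL2.

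Of the 6 members that turned from lower in replicates 1 and 2 to higher in replicate 3, 3 were past 1.5-fold. CREB3 had 1.02 and 0.67 in replicate 3, against -0.42 and -0.46 in replicates 1 and 2. ERN1 had 1.43 with shHDAC6-1, against -0.61. DERL3, at few counts in replicate 3 shCtrl, had 4.04 and 3.48, against -1.20 with each hairpin. The other 3 were ATF6B (0.48 and 0.32 in replicate 3, against -1.19 and -1.03), HYOU1 (0.46 and 0.09, against -0.79 and -0.65) and CALR (0.01 and 0.33, against -0.55 and -0.40). The marker lists differ between replicates 1 and 2 and replicate 3, and log2 changes ran with GC content in opposite directions there (rho -0.40 and -0.32 against 0.83 and 0.78 over the members). Their part in the turn was not tested.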

How the results depend on the processing

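Leaving out 1 library at a time gave 1 to 22 members called with Nexturastat A, 15 to 27 with shHDAC6-1, 0 to 4 with HPOB and 0 to 1 between the hairpins. With replicates 1, 2 and 3 in 1 fit the count was 0 with each hairpin. HPOB had 2 members called by DESeq2, 2 by limma voom, 1 without the filter and 1 with the 2 groups alone; Tubastatin A had 1 by DESeq2 and 2 by voom; the hairpins alone gave 1. Same-numbered deviations from the group means had correlations from -0.16 to 0.20. In groups of 2 libraries the deviations mirror each other, so these values cannot show whether libraries were paired. The fit with a replicate block called 12 members with Nexturastat A, 28 with each hairpin and 0 with each compound.

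Of 1232 values of 79 member results under the alternatives, 1083 kept direction and call, 99 lost the call, 20 gained it and 30 turned; the cause was not tested. With GC and length trends removed, ATF6 was 0.08 with Nexturastat A, -0.13 and -0.11 with the hairpins (the same with the block), 0.03 with HPOB and 0.01 with Tubastatin A; ERN1 was -0.05 with shHDAC6-2 (-0.04 with the block) and 0.05 with HPOB. XBP1 with shHDAC6-1 was 0.00 by DESeq2. Leaving out libraries, ATF6 ranged from -0.01 to 0.14 with shHDAC6-1 and -0.05 to 0.21 with shHDAC6-2, XBP1 from -0.10 to 0.09 with shHDAC6-1, ERN1 from -0.14 to 0.27 with shHDAC6-2 and -0.24 to 0.19 with HPOB, and ATF6B from -0.22 to 0.16 with HPOB. With replicate 3 in the fit, some turned values were as large as or larger than those from replicates 1 and 2: shHDAC6-1 gave ATF6 -0.27, ERN1 0.21, XBP1 0.42, CREB3 0.35, DERL2 -0.02 and SEL1L -0.53, and shHDAC6-2 gave ATF6 -0.20, XBP1 0.46, CREB3 0.10 and SEL1L -0.58.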
